A study of Mus musculus with 6 samples.

Results

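The genes for heterotrimeric G protein subunits and for regulators of G protein signalling (RGS proteins) were followed in N2a cells after an siRNA against the circular RNA circRtn4. The members were all protein-coding genes of the deposited expression table whose symbols name a Gα, Gβ or Gγ subunit or a numbered Rgs gene, which gave 56 of the 54532 genes listed. They comprised 16 Gα, 5 Gβ and 12 Gγ genes, and 23 genes with an Rgs symbol, of which Rgs7bp and Rgs9bp encode binding proteins of RGS proteins and not RGS proteins. Of the 56, 30 reached a mean of at least 1 FPKM (fragments per kilobase of gene, scaled to the depth of the library) over the libraries and were tested, 17 lay above 0 but below that level, and 9 were listed at 0 in all 6 libraries.

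N2a (Neuro-2a) is an established mouse neuroblastoma cell line that can be driven to grow neurites. The 6 RNA sequencing libraries were 3 from cells that received the control siRNA si-NC and 3 from cells that received si-circRtn4, with no other agent or genotype named for either group. The labels give only growth medium, while the general methods of the study also describe differentiation with retinoic acid, and which of these held for the libraries is not given in the sources used here. No source says whether the libraries came from separate cultures, so the p-values measure the spread between these libraries, which may be technical.

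A heterotrimeric G protein consists of a Gα subunit, which binds guanine nucleotides, and a tightly joined Gβγ pair. An activated receptor makes Gα release GDP and take up GTP, after which Gα and Gβγ each act on enzymes and channels. RGS proteins speed the hydrolysis of GTP by Gα and so shorten the signal. In neurons these proteins relay the signals of dopamine, opioid, muscarinic and other receptors that act on cyclic AMP, phospholipase C and ion channels.

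The study asked what knockdown of circRtn4 does to gene expression, and it treats circRtn4 as a decoy of the microRNA miR-24-3p. Sequences that bear on both reagents are shown because matches to them are a property the choice of members did not use. The first is the mature microRNA (RefSeq, GRCm38.p6, chr13:63301251-63301272, plus strand), with its seed, bases 2 to 8, in capitals. The next are the siRNA strand as the study lists it and its reverse complement, taken as the guide strand, with bases 2 to 8 of the guide and their match in capitals.
mmu-miR-24-3p: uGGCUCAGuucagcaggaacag
si-circRtn4 as listed: cttcagatgagACCCTTTt
guide strand: aAAAGGGTctcatctgaag

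A match of 7 bases to the miR-24-3p seed (CTGAGCC) lay in the longest annotated 3′ UTR of 8 of the 30 tested members (26.7%), against 21.6% of the 10691 tested genes with such a UTR. A match to the guide (ACCCTTT) lay in 7 members (23.3%), against 13.1% of these genes. A longer 3′ UTR has more room for a match. Those of the members ran from 72 to 7290 bases, and the shares were not adjusted for length. The sites are shown for the members called in either fit described below and for Gnao1, with the match in capitals, read on the strand of the gene, and with coordinates of the match in GRCm38. A match is a description of the sequence and not evidence of binding.
Gna13, miR-24-3p match at chr11:109398807-109398813, plus strand: cctggcccCTGAGCCatgccttg
Rgs10, miR-24-3p match at chr7:128373888-128373894, minus strand: gCTGAGCCcttcaccc
Gna12, miR-24-3p match at chr5:140758688-140758694, minus strand: ctggcgagCTGAGCCtggctgtg
Gnb4, guide match at chr3:32581307-32581313, minus strand: ggaaaaaaACCCTTTattttaat
Gnao1, miR-24-3p match at chr8:93958729-93958735, plus strand: actctgggCTGAGCCgtggaggg
The matches in Gna13 and Gnb4 are followed by an A, which makes them 8mer sites. The 3′ UTR of Gnao1, which encodes the abundant neuronal Gαo subunit, holds 11 matches, of which 9 stand in the identical repeated context printed here. Of the genes searched, 2 hold at least as many, Gnao1 included.

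The reads recovered from the deposited FPKM numbered 13541198 to 15122063 per library. Log2(FPKM + 1) correlated across genes at 0.98 to 0.986 within groups and at 0.967 to 0.977 between groups. Rtn4, the host gene of circRtn4, lay at 61.0, 66.8 and 69.8 FPKM in si-NC 1 to 3 and at 50.1, 56.7 and 62.7 FPKM in si-circRtn4 1 to 3. Its log2 fold change was -0.22 ± 0.10 (SE), with an adjusted p of 0.216 in limma and of 0.0447 with replicate number as a block. The table has no row for the circle, so its knockdown was not measured here. The circle is made of Rtn4 exons, so its reads could be counted in the Rtn4 row. By qRT-PCR in N2a cells, the study found the siRNA efficient against the circle and linear Rtn4 not significantly changed. All 10 listed markers of noradrenergic neuroblastoma were matched, and 9 were tested. Of these, 4 (Dbh, Th, Gata2 and Phox2a) fell, beside 4.82% of all genes lower, 0 rose, and the others were not called. The summed level of the list ran from 1000 to 1110 FPKM with si-NC and from 714 to 986 FPKM with si-circRtn4, and the part of this in the results on G protein genes was not tested. The markers of other cell types summed to 4.92 to 5.70 against 3.67 to 5.39 FPKM for glia, where Aqp4 was at 0, and to 0.912 to 1.68 against 0.901 to 1.57 FPKM for macrophages. Fibroblast markers summed to 0.294 to 0.503 against 0.509 to 0.786 FPKM, and epithelial markers, with Epcam at 0, to 0.283 to 0.719 against 0.231 to 0.376 FPKM.

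Transcripts of 4 members rose and of 3 members fell after si-circRtn4. The rises were in Gng8, a Gγ gene known from olfactory and habenular neurons, in Rgs10 and Rgs12, both of the R12 family of RGS proteins, and in Gna13, a Gα subunit of the 12/13 class. The falls were in Rgs4, a neuronal RGS protein of the R4 family, in the Gγ gene Gng4, and in Rgs7, an R7 family member that works bound to Gβ5. The changes ran from Rgs4, which fell to 19.7% of its si-NC mean, to Gng8, which rose to 245% of it. In bulk RNA, fewer cells of a kind and less RNA per cell cannot be told apart.

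These calls were made at an adjusted p under 0.05 in a limma fit of log2(FPKM + 1) over 12749 genes, on which scale the change of a gene of low level is understated. They make up 23.3% of the 30 tested members, beside 9.19% of all genes tested (4.36% higher and 4.82% lower). The members were chosen with earlier results of these data known, so shares among them are a description and not a test. Subunit genes gave 3 calls of 21 tested (14.3%), and the Rgs symbols gave 4 of 9 (44.4%). Rgs4, a call counted in both the 23.3% and the 44.4%, passed the filter of 1 FPKM only through the si-NC libraries. So did Rgs9, which was tested and not called. The median log2 fold change over the 30 members was -0.03, and that over all genes was 0.002. With each library rescaled to the same sum of FPKM, 5 members were higher and 1 lower, beside 7.66% and 3.14% of all genes, so the calls over all genes moved toward higher as well. With Gm23935 left out of that sum, 4 members were higher and 1 lower, beside 4.65% and 4.24% of all genes. Gm23935 alone took 13.5% to 20.7% of the FPKM of a library.

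Same-numbered libraries of the groups deviated from their group means together, and a fit with replicate number as a block called 5 members higher and 5 lower (33.3% of the 30), beside 19.0% of all genes. Gna12 was added among the higher and Gnb3 and Gnb4 among the lower. The libraries of the 2 groups did not overlap for 16 of the 30 members, beside 31.7% of all genes tested. Rgs4 counts in both of these shares and Rgs9 among the 16. Each of these 16 had the smallest p that an exact two-sided permutation test of 3 against 3 libraries can give, 0.1, so that test cannot reach 0.05.

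**Figure D1:**
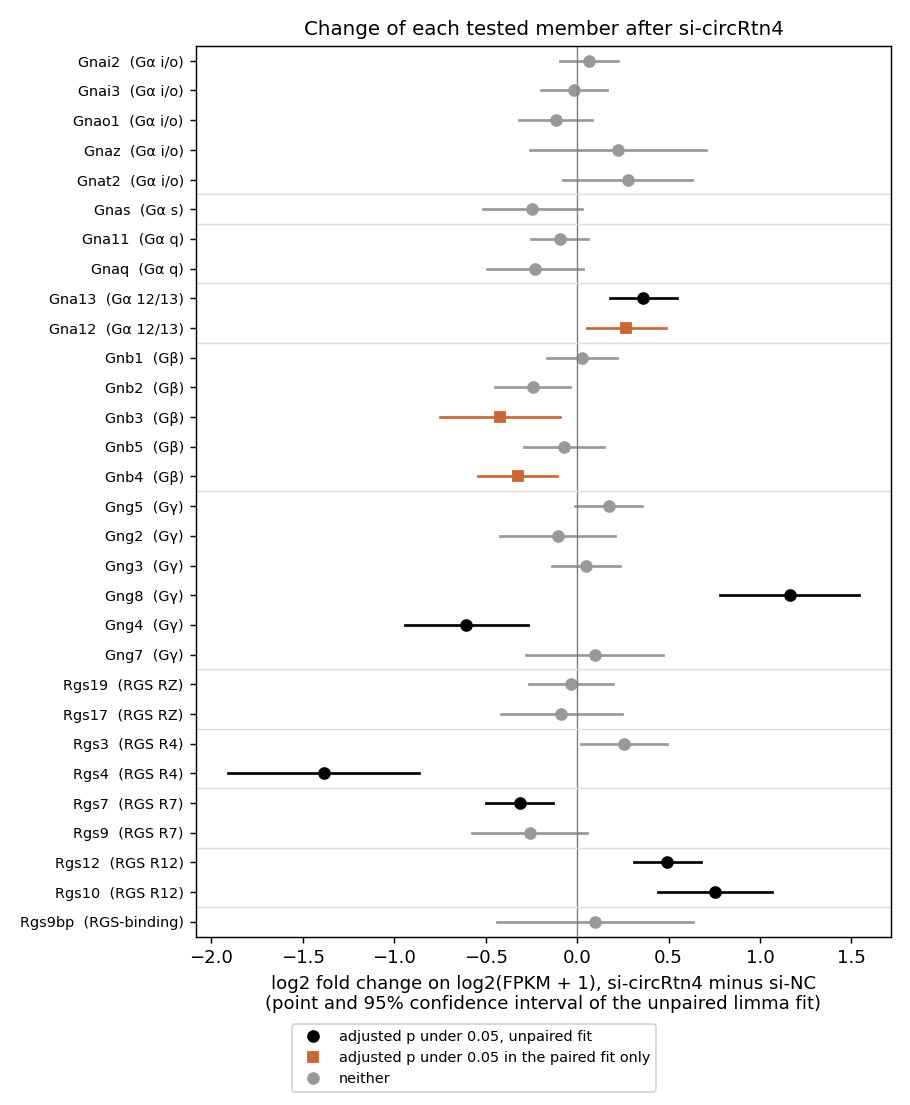
Log2 fold change of each of the 30 tested members on the scale of log2(FPKM + 1), si-circRtn4 minus si-NC, with its 95% confidence interval from the fit without pairing. Members are grouped by class, and Rgs4 at -1.39 and Gng8 at 1.16 stand at the ends.

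The Gα subunits decide which enzyme a receptor reaches, and 10 of the 16 Gα genes were tested. Among those of the inhibitory i/o class, which lower cyclic AMP, Gnai2 was the highest, at 48.5, 48.1 and 47.2 FPKM in si-NC 1 to 3 and 48.5, 49.4 and 52.9 FPKM in si-circRtn4 1 to 3. The groups stood just apart, with a log2 fold change of 0.07 ± 0.07 (SE) and an adjusted p of 0.595 in limma. Gnai3 (means 46.9 and 46.2 FPKM) and Gnao1 (23.2 and 21.3 FPKM) had overlapping groups. For Gnao1, with its many miR-24-3p matches, the log2 fold change was -0.12, with a 95% confidence interval of -0.32 to 0.08 and a limma adjusted p of 0.446. Gnaz, which encodes the i/o relative that pertussis toxin does not modify, varied from 6.11 to 11.3 FPKM within the si-NC group. Gnat2, the transducin of cone photoreceptors, was present at 2.94 to 5.30 FPKM, while Gnat1 and Gnat3 had 4 and 2 reads over all libraries and Gnai1 was listed at 0. None of the 5 tested genes of this class was called by limma, and none had an unadjusted p under 0.05.

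Gnas encodes Gαs, which stimulates adenylyl cyclase. It lay at 24.5, 21.7 and 24.4 FPKM in si-NC 1 to 3 and at 17.1, 19.1 and 23.2 FPKM in si-circRtn4 1 to 3. The groups overlapped through si-circRtn4 3, and the log2 fold change of -0.24 ± 0.12 (SE) had an adjusted p of 0.235 in limma. Its row covers a locus of several promoters. On the other strand it shares 988 of its 11186 exonic bases with the antisense gene Nespas and 1469 with Gm20721. Gna11 and Gnaq encode the subunits that activate phospholipase Cβ. Gna11 lay at 40.5, 38.2 and 38.6 FPKM in si-NC 1 to 3 and at 36.4, 37.8 and 35.6 FPKM in si-circRtn4 1 to 3, with no overlap. Its log2 fold change was -0.09 ± 0.07 (SE), and the adjusted p was 0.432 in limma. Gnaq had means of 15.8 and 13.3 FPKM and overlapping groups.

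Gna13 and Gna12 encode the 12/13 class, which acts on guanine nucleotide exchange factors. Gna13 (chr11:109362831-109401369, plus strand) lay at 51.5, 47.5 and 49.0 FPKM in si-NC 1 to 3 and at 68.9, 60.3 and 62.2 FPKM in si-circRtn4 1 to 3. Every si-circRtn4 library was above every si-NC library, and each pair of the same number rose. The log2 fold change was 0.36 ± 0.08 (SE), with an adjusted p of 0.0315 in limma. Gna13 had the highest mean FPKM of the Gα genes over the 6 libraries, although Gnai3 was above it in si-NC 2 and si-NC 3 and Gnai2 in si-NC 2. Its share of the summed Gα FPKM went from 16.8% ± 0.143 (SD, n = 3) to 20.7% ± 1.21 (SD, n = 3). The call kept an adjusted p of 0.0484 without si-NC 1. It was lost without si-NC 2 (0.122), si-NC 3 (0.0909), si-circRtn4 1 (0.0808), si-circRtn4 2 (0.0644) or si-circRtn4 3 (0.0703). Quantile normalization (0.0505) and testing all genes above 0 in any library (0.0676) also lost it.

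Gna12 lay at 38.7, 33.3 and 31.8 FPKM in si-NC 1 to 3 and at 43.1, 43.0 and 39.3 FPKM in si-circRtn4 1 to 3. The lowest si-circRtn4 library was only just above the highest si-NC library. Its log2 fold change was 0.27, with a standard error of 0.09 and an adjusted p of 0.114 without the block, and a standard error of 0.06 and an adjusted p of 0.0366 with it in limma. Both genes of this class carry a miR-24-3p match. Gna13 shares 151 exonic bases with an antisense gene and Gna12 shares 456 with Amz1 on the other strand, and the strand setting of the counting is not given in the sources used here.

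**Figure D2:**
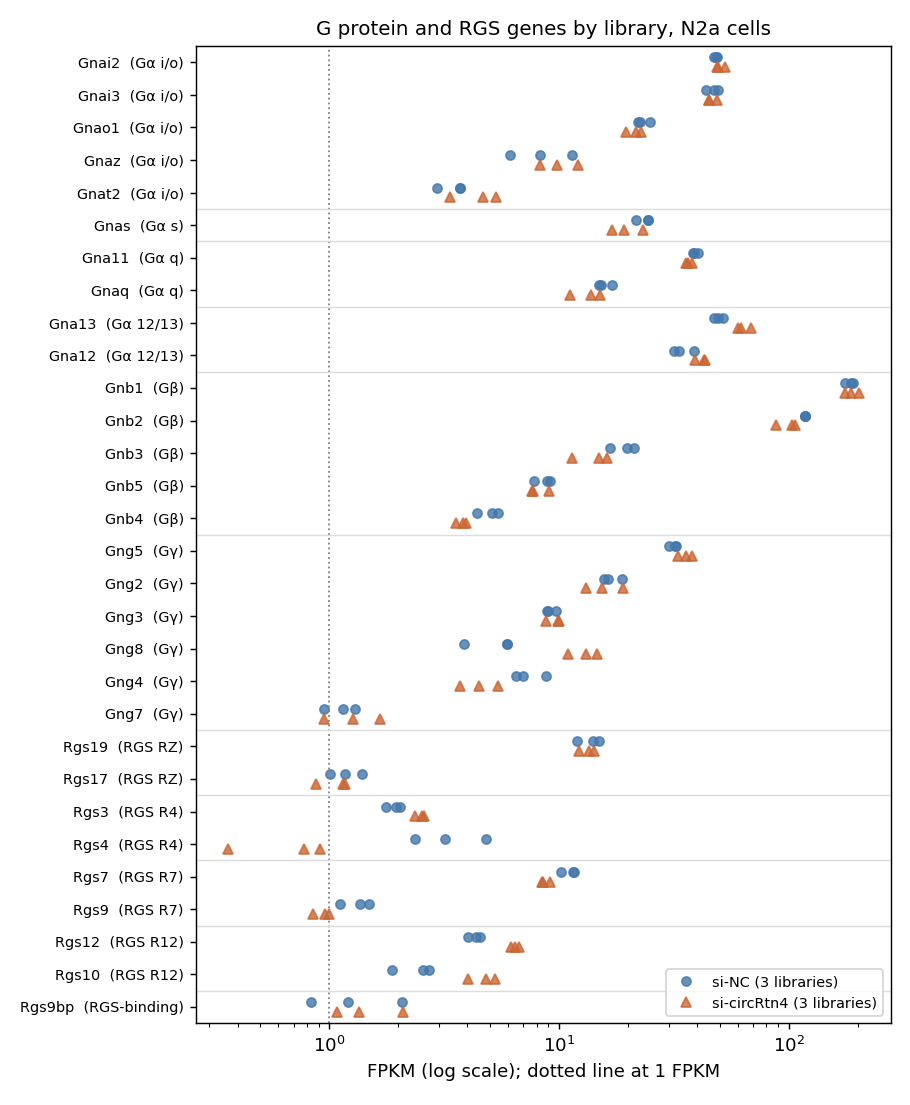
FPKM of the 30 tested members in the 3 si-NC libraries (circles) and the 3 si-circRtn4 libraries (triangles), on a log axis. Gnb1 was the highest at 176 to 202 FPKM, and Rgs4 lay below 1 FPKM in every si-circRtn4 library.

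All 5 Gβ genes were tested. Gnb1, which encodes the widespread Gβ1, was the highest member of all. It lay at 176, 186 and 191 FPKM in si-NC 1 to 3 and at 176, 186 and 202 FPKM in si-circRtn4 1 to 3. The groups overlapped almost fully, and the log2 fold change was 0.03 ± 0.08 (SE), with an adjusted p of 0.871 in limma. Gnb2 stood at 117.5 FPKM in each si-NC library and at 88.0, 107 and 104 FPKM in si-circRtn4 1 to 3. Its si-circRtn4 values were all lower, with a log2 fold change of -0.24 and an adjusted p of 0.135 in limma, or 0.0707 with the block. Gnb1 thus made up 53.4% to 55.9% of the summed Gβ FPKM in si-NC 1 to 3 and 59.0% to 60.6% with si-circRtn4.

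Gnb3, the Gβ subunit known from cone photoreceptors, lay at 21.2, 16.7 and 19.7 FPKM in si-NC 1 to 3 and at 14.98, 11.3 and 16.2 FPKM in si-circRtn4 1 to 3. Each same-numbered pair fell. The groups did not overlap, but the lowest si-NC library (16.7 FPKM) was only just above the highest si-circRtn4 library (16.2 FPKM). The log2 fold change of -0.42 had an adjusted p of 0.111 without the block and of 0.0163 with it in limma. Gnb4 lay at 5.41, 5.14 and 4.42 FPKM in si-NC 1 to 3 and at 3.93, 3.55 and 3.83 FPKM in si-circRtn4 1 to 3. Its groups did not overlap, and the log2 fold change of -0.33 had an adjusted p of 0.0726 without the block and of 0.0487 with it in limma. Gnb4 was the only member called in either fit whose 3′ UTR held a guide match. Matches also lay in Gnb1, Gnb2, Gng3, Gng5, which held 2, Rgs19 and Rgs3, which were called in neither fit. Their log2 fold changes were, in that order, 0.03, -0.24, 0.05, 0.17, -0.03 and 0.26. Gnb5, the partner of the R7 RGS proteins, had means of 8.61 and 8.15 FPKM and overlapping groups. Of the Gβ genes 3 had an unadjusted p under 0.05 in the fit without the block, and all 3 of these were lower, beside 12.8% of all genes lower at that threshold.

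The Gγ subunits carry the lipid that holds Gβγ at the membrane, and 6 of 12 were tested. Gng8 (chr7:16891786-16895436, plus strand) lay at 5.96, 3.87 and 5.96 FPKM in si-NC 1 to 3 and at 10.9, 14.7 and 13.2 FPKM in si-circRtn4 1 to 3. The lowest si-circRtn4 library was well above the highest si-NC library. Its mean went from 5.27 ± 1.21 to 12.9 ± 1.86 FPKM (SD, n = 3 each), and the log2 fold change was 1.16 ± 0.16 (SE), with an adjusted p of 0.0078 in limma. It rested on 85 to 347 reads per library and was called in each of the 13 alternatives, with adjusted p-values of 0.000996 to 0.0415.

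Gng4 (chr13:13784059-13827896, plus strand) went the other way, from 8.79, 6.48 and 6.996 FPKM in si-NC 1 to 3 to 5.43, 3.71 and 4.49 FPKM in si-circRtn4 1 to 3. Each pair fell, and the groups did not overlap. The mean fell to 61.2% of that in si-NC, with a log2 fold change of -0.61, a standard error of 0.14 and an adjusted p of 0.0415 in limma. The call kept an adjusted p of 0.0474 without si-circRtn4 1. It was lost without si-NC 1 (0.0892), si-NC 2 (0.0719), si-NC 3 (0.0863), si-circRtn4 2 (0.116) or si-circRtn4 3 (0.0977), and under rescaling to the same sum (0.0675). Rescaling without Gm23935 (0.055) and testing all genes above 0 in any library (0.136) also lost it.

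The other tested Gγ genes were not called. Gng5, found in most tissues, was the most abundant, at 32.3, 30.0 and 32.0 FPKM in si-NC 1 to 3 and 35.8, 38.1 and 32.9 FPKM in si-circRtn4 1 to 3. The groups were just separate, with a log2 fold change of 0.17 ± 0.08 (SE) and an adjusted p of 0.219 in limma. Gng2 and Gng3, which are abundant in brain, and Gng7, known from the striatum, had overlapping groups, with means of 16.99 and 15.8, of 9.19 and 9.55 and of 1.14 and 1.30 FPKM. Gng5, Gng2, Gnb1 and Gnat2 have processed pseudogenes in the table, with which their reads could have been shared. On the other strand, Gng2 shares 897 of 4390 exonic bases with Gm48283, and Gng3 shares 398 of 1643 with Bscl2.

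The make-up of the Gγ transcripts shifted accordingly. Gng8 made up 7.97%, 5.71% and 7.81% of the summed Gγ FPKM in si-NC 1 to 3 and 14.3%, 17.4% and 15.8% with si-circRtn4. Gng4 made up 11.7%, 9.54% and 9.17% and then 7.10%, 4.41% and 5.39%. Gng4 was therefore above Gng8 in every si-NC library and below it in every si-circRtn4 library, with Gng8 at 0.598 to 0.852 of Gng4 before and at 2.02 to 3.95 of it after. The sum over Gγ genes was 73.0 ± 4.50 FPKM in si-NC and 81.3 ± 4.23 FPKM in si-circRtn4 (SD, n = 3 each). These shares follow from the levels given above and carry no test of their own.

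**Figure D3:**
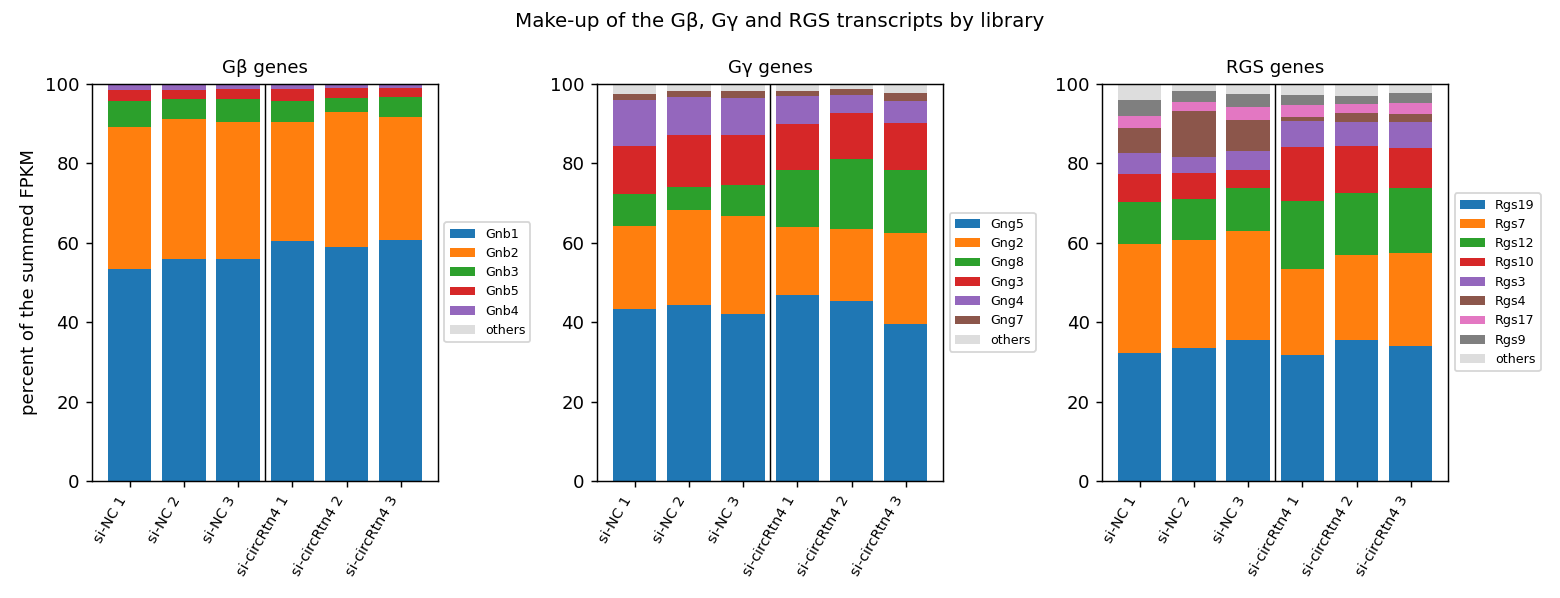
Percent of the summed FPKM of the Gβ, Gγ and RGS genes taken by each gene, 1 bar per library, with genes below 1 FPKM as others and the binding proteins left out. Gng8 widens from 5.71% to 7.97% in si-NC to 14.3% to 17.4% in si-circRtn4, while Rgs4 narrows from 6.37% to 11.4% to 0.935% to 2.28%.

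Rgs4 (chr1:169741477-169747642, minus strand), which acts on Gαi/o and Gαq in neurons, had the largest log2 fold change in size of the tested members. It passed the filter of a mean of 1 FPKM only through the si-NC libraries, where it is high. It lay at 2.37, 4.84 and 3.21 FPKM in si-NC 1 to 3 and at 0.363, 0.912 and 0.777 FPKM in si-circRtn4 1 to 3. Every si-circRtn4 library was below 1 FPKM and below every si-NC library. The mean went from 3.47 ± 1.25 to 0.684 ± 0.286 FPKM (SD, n = 3 each). The log2 fold change was -1.39 ± 0.22 (SE), with an adjusted p of 0.0120 in limma, and limma-voom on the recovered reads, on the scale of log2 counts, gave -2.32. The call rested on 16 to 216 reads per library. It held without each library in turn (adjusted p 0.0139 to 0.0404) and was lost when all genes above 0 in any library were tested (0.0622).

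Rgs3, the other tested gene of the R4 family, lay at 1.96, 1.77 and 2.04 FPKM in si-NC 1 to 3 and at 2.52, 2.36 and 2.58 FPKM in si-circRtn4 1 to 3. The groups did not overlap, and its log2 fold change of 0.26 ± 0.10 (SE) had an adjusted p of 0.159 in limma and of 0.0386 in limma-voom. Of the 10 R4 genes 5 were listed at 0, and Rgs2, Rgs5 and Rgs8 had 2, 12 and 2 reads over all libraries. Chromosome 1 holds 11 of the Rgs members, and only Rgs4 and Rgs7 of these were tested. Rgs5, which lies 45.7 kb from Rgs4, reached at most 0.0629 FPKM in any library.

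Rgs10 and Rgs12 belong to the R12 family, which acts on Gαi/o. Rgs10 (chr7:128373621-128418758, minus strand) encodes a small RGS protein known from neurons and microglia. It lay at 2.56, 2.72 and 1.88 FPKM in si-NC 1 to 3 and at 5.26, 4.81 and 4.02 FPKM in si-circRtn4 1 to 3. The groups were well apart, and the mean rose to 197% of that in si-NC. The log2 fold change was 0.75 ± 0.13 (SE), with an adjusted p of 0.0164 in limma. It rested on 45 to 128 reads per library, and the call was lost without si-circRtn4 1 (0.0589) or si-circRtn4 2 (0.0643) and when all genes above 0 in any library were tested (0.0731).

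Rgs12 (chr5:34949445-35039644, plus strand) encodes a large protein that also holds a PDZ domain and a GoLoco motif. It lay at 4.005, 4.34 and 4.53 FPKM in si-NC 1 to 3 and at 6.67, 6.21 and 6.45 FPKM in si-circRtn4 1 to 3. The libraries of each group lay close together and the groups far apart. The mean rose to 150% of that in si-NC, with a log2 fold change of 0.49 ± 0.08 (SE) and an adjusted p of 0.0114 in limma. The call was lost without si-NC 2, at 0.0507, and held in the other 12 alternatives. An antisense gene shares 467 of its 8487 exonic bases. Rgs14, the remaining R12 gene, lay below the level tested, at 0.327 to 0.50 FPKM in si-NC and 0.243 to 0.273 FPKM in si-circRtn4.

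Rgs7 (chr1:175059087-175492500, minus strand) lay at 10.2, 11.6 and 11.5 FPKM in si-NC 1 to 3 and at 8.46, 8.53 and 9.18 FPKM in si-circRtn4 1 to 3. All si-circRtn4 libraries were lower. The log2 fold change was -0.31 ± 0.08 (SE), with an adjusted p of 0.0482 in limma. The call kept an adjusted p of 0.0417 without si-NC 1. It was lost without si-NC 2 (0.166), si-NC 3 (0.136), si-circRtn4 1 (0.126), si-circRtn4 2 (0.136) or si-circRtn4 3 (0.0801), and under rescaling to the same sum (0.129). Rescaling without Gm23935 (0.0593) and testing all genes above 0 in any library (0.0997) also lost it.

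Rgs9, an R7 gene known from striatum and retina, had means of 1.32 and 0.938 FPKM without overlap of the groups. It had an adjusted p of 0.272 in limma. Rgs9 passed the filter of a mean of 1 FPKM only through the si-NC libraries, where it is high. Its anchor Rgs9bp lay at 0.835 to 2.10 FPKM over all libraries, with overlapping groups. Rgs19, an RZ family protein that acts on Gαi/o, was the most abundant RGS transcript. It lay at 11.97, 14.1 and 14.9 FPKM in si-NC 1 to 3 and at 12.3, 14.2 and 13.5 FPKM in si-circRtn4 1 to 3. The groups overlapped, and the log2 fold change was -0.03 ± 0.10 (SE), with an adjusted p of 0.876 in limma. Rgs17, of the same family, had means of 1.19 and 1.06 FPKM.

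Within the RGS genes the sum stayed between 37.2 and 42.3 FPKM in the 6 libraries while the make-up differed. Rgs4 made up 6.37%, 11.4% and 7.64% of it with si-NC and 0.935%, 2.28% and 1.97% with si-circRtn4. Rgs12 went from 10.6% ± 0.300 to 16.3% ± 0.823, and Rgs10 from 5.92% ± 1.27 to 11.9% ± 1.69 (SD, n = 3 each). Rgs10 stood at 0.562 to 1.08 of Rgs4 with si-NC and at 5.17 to 14.5 of it with si-circRtn4.

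**Figure D4:**
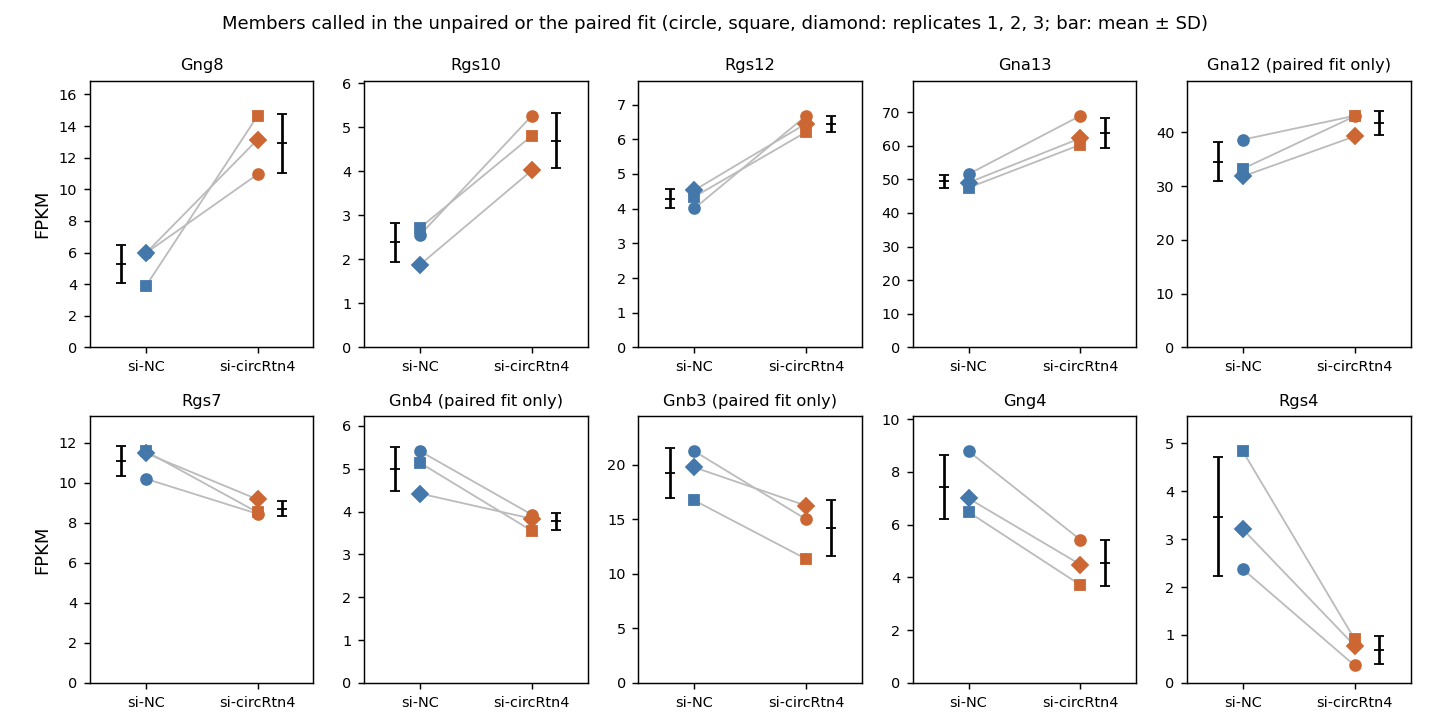
FPKM by library of the 10 members called with or without the replicate block, each panel on its own axis from 0, with lines joining libraries of the same number and bars for the mean ± SD of 3 libraries. Gng8 rises from 3.87 to 5.96 FPKM in si-NC to 10.9 to 14.7 FPKM in si-circRtn4, and Rgs4 drops from 2.37 to 4.84 FPKM to 0.363 to 0.912 FPKM.

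The matches were then set beside the calls. Of the 4 members that rose, Gna13 and Rgs10 held a miR-24-3p match and Gng8 and Rgs12 did not. None of the 3 that fell (Rgs4, Gng4 and Rgs7) held one. None of these 7 members held a guide match. The 3′ UTR searched for Gng8 had only 72 bases. The other tested members with a miR-24-3p match, Gna12, Gnao1, Gnaq, Gng7, Rgs3 and Rgs9, were not called without the block. Their log2 fold changes were, in that order, 0.27, -0.12, -0.23, 0.10, 0.26 and -0.26. A miR-24-3p match lay in 26.7% of the 30 tested members and in 21.6% of the genes searched. A guide match lay in 23.3% and 13.1% of them, without adjustment for the length of the 3′ UTR. The match in Rgs10 starts at base 2 of a 3′ UTR of 275 bases. With 7 called members the split by direction rests on few genes, and no test of it was made.

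The other genes of the pathway were read from a list of 69 receptor kinases, arrestins, exchange factors, chaperones, effectors, anchors and further RGS-domain proteins, of which 36 were tested. In limma 5 of them fell (13.9% of those tested, beside 4.82% of all genes) and 0 rose, with 6 higher and 9 lower at an unadjusted p under 0.05, beside 13.1% and 12.8% of all genes. Limma-voom called 1 higher, Ccdc88c, which encodes an exchange factor for Gαi, with an adjusted p of 0.0088, against 0.106 in limma. It lay at 0.873, 0.719 and 1.004 FPKM in si-NC and 1.65, 1.47 and 1.32 FPKM in si-circRtn4. Ccdc88c passed the filter of a mean of 1 FPKM only through the si-circRtn4 libraries, where it is high. The median log2 fold change of the 36 was 0.06. The list was chosen with earlier results of these data known, so its shares are a description and not a test. With each library rescaled to the same sum, limma called 1 pathway gene lower, Grk5, beside 3.14% of all genes.

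Grk5, a kinase that phosphorylates active receptors, lay at 14.9, 12.2 and 13.6 FPKM in si-NC 1 to 3 and at 7.13, 5.603 and 5.87 FPKM in si-circRtn4 1 to 3. The groups were far apart, with a log2 fold change of -1.02 ± 0.11 (SE) and an adjusted p of 0.0030 in limma, and the call held in all 13 alternatives. Arrb1, which encodes β-arrestin 1, fell from a mean of 10.96 to 8.25 FPKM (adjusted p 0.0262 in limma). The next calls were RGS-domain proteins whose symbols lie outside the rule. Arhgef1, an exchange factor that Gα13 activates, fell from 22.8 to 17.2 FPKM (adjusted p 0.0288 in limma), in the opposite direction to Gna13. Snx25, a sorting nexin, fell from 34.2 to 24.8 FPKM (adjusted p 0.0333 in limma).

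Prex1, a Rac exchange factor that Gβγ activates, fell from 9.73 to 7.10 FPKM (adjusted p 0.0475 in limma). The call of Prex1 was lost without any 1 of the 6 libraries (0.0564 to 0.156). Those of Arrb1, Arhgef1 and Snx25 held without si-circRtn4 3 and were lost without any of the other 5 libraries (0.0521 to 0.111). With the replicate block 8 pathway genes fell (22.2% of those tested, beside 9.75% of all genes lower in that fit), the additions being Arhgef11 (adjusted p 0.0113 in limma), Grk3 (0.0266) and Arrdc1 (0.0377), and 0 rose.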

How the data were processed

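The authors deposited FPKM per gene, with gene length and coordinates. Submitters' processing notes name Bowtie 0.12.2, mm8 and mm9, whereas 98.1% of the coordinates equal those of GENCODE M21 (GRCm38). The counting tool is not given in the sources used here. FPKM times length gave whole reads (within 0.1 read) for 100% of values. Columns of 6 other samples were not used. Log2(FPKM + 1) of genes averaging 1 FPKM or more was tested in limma 3.58.1 (R 4.3.3; eBayes with trend, Benjamini-Hochberg adjustment), also on simulated data. Members and lists were chosen with earlier results of these data known. Members called in either fit, and the highest of each class, were given in full. Deviations correlated at 0.331, 0.19 and 0.226 for libraries of the same number and at most at 0.00913 for others, so numbers were also used as a block. Alternatives were pseudocount, filter, quantile normalization, rescaling, limma-voom on recovered reads and leaving out each library. Sites were searched in the longest 3′ UTR (GENCODE M21). Python 3.11.15 was used.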

Additional observations from a re-analysis of the deposited data

How the results depend on the processing

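A pseudocount of 0.1 left the counts of members at 4 higher and 3 lower. Members higher numbered 2 with all detected genes tested and 2 to 4 with a library left out. Members lower numbered 5 with the replicate block, 0 with all detected genes, 1 under either rescaling and 1 to 2 with a library left out. Pathway genes higher numbered 1 in limma-voom and 0 elsewhere. Pathway genes lower numbered 8 with the replicate block, 1 with all detected genes, 1 under rescaling to the same sum and 1 to 6 with a library left out. With all detected genes, 28442 genes were adjusted over in place of 12749, and leaving out a library left 5. The calls over all genes moved as well, from 556 higher and 615 lower in the fit without the block. They were 210 and 261 with all detected genes, and 1185 and 1243 with the replicate block. With a library left out, 163 to 407 of all genes were higher and 217 to 419 lower. Quantile normalization took Gna13 to an adjusted p of 0.0505 in limma. Rescaling to the same sum, which moved the median log2 fold change of all genes to 0.08, took Gna12 to 0.0482. The replicate block changed no member's call beyond Gna12, Gnb3 and Gnb4. Signs turned only in log2 fold changes that were not called. Under rescaling these became 0.0541 for Rgs19, 0.0715 for Gnai3 and 0.0115 for Gnb5. Gnai3 was also 0.0138 after quantile normalization, 0.0019 without Gm23935 and 0.0028 in limma-voom. With a library left out, values ran from -0.1187 to 0.0295 for Rgs19, from -0.0718 to 0.2997 for Rgs9bp, from -0.068 to 0.0181 for Gnai3, from -0.0253 to 0.0742 for Gnb1, from -0.2401 to 0.0141 for Gng2 and from -0.0192 to 0.209 for Gng7. The cause was not tested. Rgs4 rested on 16 to 216 reads per library.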
